A study of Mus musculus with 6 samples.

Results

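The TRIM family is a large group of proteins built around a RING domain, B-box zinc fingers and a coiled coil, and most of its members are ubiquitin ligases. Its genes were taken as every row of the deposited count tables whose symbol is Trim followed by a number and at most 1 letter, Trim21 included. This gave 68 genes of 26214 features, of which 51 passed the filter on low counts and were tested. RNA left after removal of ribosomal RNA was sequenced from colon tumours of mice given AOM (azoxymethane, a carcinogen) and DSS (dextran sulfate sodium, which injures the colon lining). Tumours of 3 Trim21 -/- samples, called knockout, were compared with tumours of 3 Trim21 +/+ samples, called wild type, and all 6 received the same treatment. The labels call the samples biological replicates, but give no strain, age, sex or targeted exon. They also do not say whether each sample came from its own mouse. A p-value here therefore reflects only how far these samples spread, which may not be the spread between mice. Libraries held 17937821 to 19987295 reads in the knockout and 27085599 to 29742757 in the wild type, so low counts are less precise in the knockout.

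In TRIM proteins the RING domain recruits the ubiquitin-conjugating enzyme and the C-terminal domain usually selects the target. Many members with a PRY-SPRY domain at the C-terminus act in innate immunity and are themselves induced by interferon. Trim21 belongs to that group: its PRY-SPRY domain binds the constant part of antibodies inside the cell, and its ligase also acts on interferon regulatory factors. Colonocytes, immune cells and stroma all express TRIM genes, and in bulk tumour RNA fewer cells of a type cannot be told apart from less RNA per cell.

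All 9 colon epithelial markers, such as Epcam, Cdx2 and Vil1, had reads, with a summed level of 6739 to 7460 CPM (reads of a gene relative to the scaled library size) in every library. The wild-type replicate 3 library stood apart in its striated muscle markers, and knockout replicate 2 and wild-type replicate 1 stood apart in interferon-stimulated genes. Wild-type replicate 1 was also the lowest library in summed goblet cell markers (1932 CPM against 3869 to 12831 in the other 5), smooth muscle markers (224 against 482 to 1297 CPM) and mature colonocyte markers (108 against 306 to 706 CPM). Log2 fold changes were above 0 for 6 of 6 goblet and 8 of 8 smooth muscle markers, with medians of 1.35 and 1.06, and the part of these shifts in the TRIM values was not tested. Results that touch these libraries are given with that in view below.

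RefSeq promoters of the members were searched for interferon motifs. Of the 68 members, 53 had an entry in the RefSeq promoter table for GRCm38.p6, the assembly that mm10 denotes, which covers 250 bases before to 50 bases after a start. The letters GAAA, any 2 bases and GAAA again, searched on both strands (TTTC, any 2 bases, TTTC on the other), resemble the interferon-stimulated response element that interferon-activated factors bind. They were found in 9 of these 53 members. In a list of interferon-inducible TRIM genes written from general knowledge, 8 of 14 members with a promoter entry held a match, against 1 of 39 other members (Trim2). Over all genes with a promoter entry the share was 3.99%, and in a list of interferon-stimulated genes without TRIM members it was 12 of 22. The other interferon motif searched, TTC, any 3 bases and GAA, which reads the same on both strands, was found in 6 of 53 members, or 11.3%, against 9.55% of all genes. A match describes these letters in this window and is not a shown binding site.

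The 8 stretches are printed 5′ to 3′ on the gene's strand because they carry the element that most of the interferon-inducible members have in common, with the match in capitals.
Trim21 (chr7:102565450-102565479, minus strand): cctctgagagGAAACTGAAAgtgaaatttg
Trim5 (chr7:104288136-104288165, minus strand): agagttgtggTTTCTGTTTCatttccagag
Trim12a (chr7:104315466-104315495, minus strand): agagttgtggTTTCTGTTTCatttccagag
Trim12c (chr7:104353359-104353388, minus strand): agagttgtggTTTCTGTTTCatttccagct
Trim30a (chr7:104465210-104465239, minus strand): agttctttagTTTCTTTTTCtcagttcctg
Trim30d (chr7:104507871-104507900, minus strand): agttctttagTTTCTTTTTCtcagttcctg
Trim34a (chr7:104244457-104244486, plus strand): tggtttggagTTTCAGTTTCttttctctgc
Trim26 (chr17:36836976-36837005, plus strand): ccgcttccgaTTTCACTTTCcttttctcgg
The Trim5 and Trim12a stretches were identical over 30 of 30 bases, as were those of Trim30a and Trim30d, and Trim12c matched Trim5 at 28 of 30. In Trim21 and in Trim26 a further match overlaps the one printed, and Trim30a has a further match at another RefSeq start. Both Trim21 matches lie just after the RefSeq start.

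Trim21 was lower in the knockout but far from absent. The gene spans 102557921 to 102565486 of chromosome 7 (mm10, minus strand). Knockout replicates 1 to 3 measured 12.1, 18.9 and 12.8 CPM, and wild-type replicates 1 to 3 measured 29.8, 20.3 and 19.5 CPM. The groups did not overlap, but knockout replicate 2 lay close to wild-type replicates 2 and 3. Means were 14.6 ± 3.76 against 23.2 ± 5.68 CPM (SD, n = 3 each), and the log2 fold change was −0.67 (standard error, SE, 0.24). Adjusted over all genes, the difference did not pass the edgeR quasi-likelihood test (adjusted p = 0.418). Reads per gene do not show which exons are covered, so a check of the deleted part was not possible. In each group the highest Trim21 value fell in the library with the highest level of interferon-stimulated genes. With that level as a covariate the log2 fold change was −0.54 (edgeR adjusted p = 0.378), and it was −0.90 with knockout replicate 2 left out and −0.45 with wild-type replicate 1 left out.

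No member of the family passed the test over all 16281 genes, and the members lay evenly around 0. With edgeR the count of members called was 0, where 0% of all genes tested were called, and the smallest adjusted p was 0.334, for Trim15. Log2 fold changes were above 0 for 25 members, where 47.9% of all genes were above 0, and below 0 for 26, with a median of −0.04 against −0.01 over all genes tested. For 34 of the 51 members the log2 fold change was smaller than 0.25 in size. At an unadjusted p under 0.05 there were 6 members, 1 higher (Trim68) and 5 lower (Trim15, Trim40, Trim33, Trim21 and Trim59). That is 11.8% of the members, against 10.7% of all genes tested, of which 6.63% were higher and 4.12% lower. The groups did not overlap for 7 members (13.7%), 2 higher and 5 lower in the knockout, against 17.9% of all genes, 9.43% higher and 8.47% lower. Both shares are near those of all genes. Leaving out single libraries changed the 5 lower members to 2 without knockout replicate 1 or 3, 3 without wild-type replicate 1 or 2, and 4 without either remaining library. The 1 higher member became 2 without knockout replicate 1 or wild-type replicate 2 and 4 without wild-type replicate 1. Counts over all genes moved as well. Lower genes, 670 in the main fit, numbered 657, 442 and 470 without knockout replicates 1, 2 and 3. They numbered 519, 668 and 774 without wild-type replicates 1, 2 and 3. Higher genes, 1080 in the main fit, numbered 1172, 772 and 637, and 851, 1236 and 1018, in the same order. The median over the members lay between −0.13 (without knockout replicate 2) and 0.07 (without knockout replicate 1). DESeq2 called 1 member, Trim15, where it called 2.21% of the 15279 genes to which it gave an adjusted p, and limma-voom called 0.

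**Figure D1:**
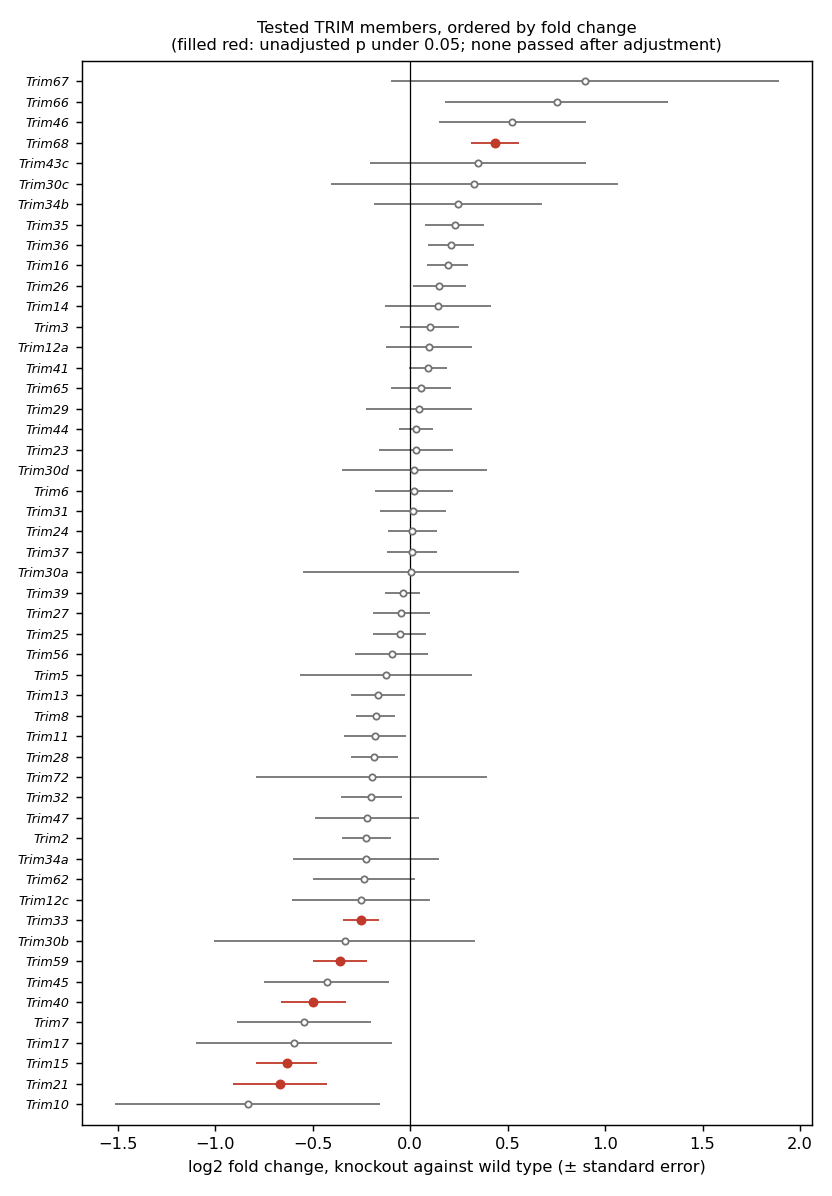
Log2 fold change of the 51 tested TRIM members, knockout against wild type, with the standard error as a bar, ordered from highest to lowest. The 6 filled red points are the members with an unadjusted p under 0.05, Trim68 on the right of 0 and the other 5 on the left, and 25 members lie above 0 and 26 below.

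Trim68 was the paralogue that went against Trim21. Its product is a PRY-SPRY ubiquitin ligase, and its gene is the nearest TRIM neighbour of Trim21, 112.1 kb away on the same chromosome and strand (chromosome 7, 102677582 to 102687327). Its level was 19.8, 18.7 and 19.4 CPM in the knockout replicates and 14.2, 13.9 and 14.8 CPM in the wild-type replicates. The libraries of each group lay close together and the groups did not overlap. The mean was 19.3 ± 0.595 CPM against 14.3 ± 0.440 CPM (SD, n = 3 each), or 1.35-fold higher. The log2 fold change was 0.43 (SE 0.12) and did not pass (edgeR adjusted p = 0.347). Leaving out any single library kept the log2 fold change between 0.42 and 0.46. Of the 104 other tested genes within 5 Mb of Trim21 that are not TRIM members, the groups did not overlap for 22.1%, with 11 higher and 12 lower in the knockout, near the 17.9% of all genes tested.

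Trim15, Trim10 and Trim40 had the lowest values in a cluster on chromosome 17. Trim15 encodes a protein of focal adhesions, Trim40 a protein of gut epithelium that restrains inflammatory signalling, and Trim10 is known from red cell development. They are adjacent, from 36860691 to 36890123, between Trim26 and Trim31. Trim15 measured 44.9, 61.2 and 43.0 CPM in knockout libraries and 71.5, 83.7 and 76.3 CPM in wild-type libraries. Each wild-type library was higher than each knockout library, and the mean was 49.7 ± 10.02 CPM against 77.2 ± 6.10 CPM (SD, n = 3 each). The log2 fold change was −0.63 (SE 0.15), or 1.55-fold lower, with an edgeR adjusted p of 0.334 and a DESeq2 adjusted p of 0.029.

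Trim40 measured 42.8, 59.1 and 46.5 CPM in knockout libraries and 57.1, 74.4 and 77.9 CPM in wild-type libraries (log2 fold change −0.50, SE 0.17, edgeR adjusted p = 0.397). Its groups overlapped, since knockout replicate 2 was above wild-type replicate 1. Trim10 measured 1.49, 12.8 and 3.77 CPM in knockout libraries and 14.3, 8.87 and 8.93 CPM in wild-type libraries. The log2 fold change of Trim10 was −0.83 (SE 0.68, edgeR adjusted p = 0.671), and it was −2.02 with knockout replicate 2 left out and −0.36 with knockout replicate 1 left out. Beside them, Trim26 (0.15), Trim31 (0.01) and Trim39 (−0.04) had log2 fold changes near 0. Trim31 encodes a ligase of gut epithelium that acts on antiviral signalling. Mature colonocyte markers, 7 of 7 of which had positive log2 fold changes, summed to 486 to 706 CPM in knockout and 108 to 332 CPM in wild-type libraries, opposite in direction to Trim15 and Trim40. Their part in the Trim15 and Trim40 values was not tested. Erythroid markers, 5 of 5 tested below 0 with a median log2 fold change of −0.71, summed to 229, 126 and 203 CPM in knockout replicates and 74.1, 421 and 432 CPM in wild-type replicates 1, 2 and 3. Trim10 was highest in knockout replicate 2 and wild-type replicate 1. In each group that library was the highest in interferon-stimulated genes and the lowest in erythroid markers. The part of either list in the Trim10 value was not tested.

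**Figure D2:**
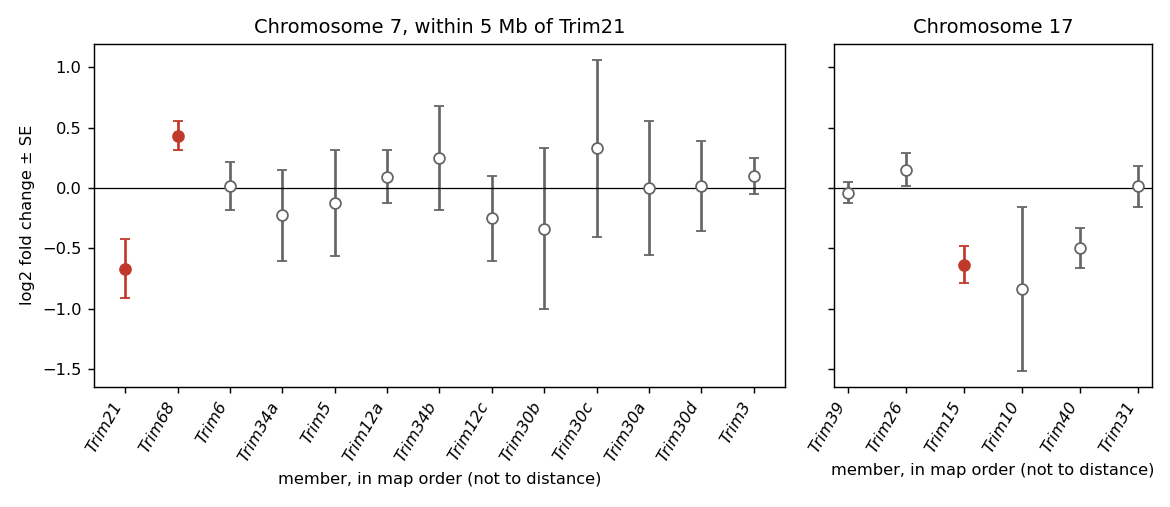
Log2 fold change, knockout against wild type, with the standard error as a bar, for the members on chromosome 7 within 5 Mb of Trim21 (left) and on chromosome 17 (right), in map order but not to distance. Filled red points are members whose groups did not overlap: Trim21 at −0.67, Trim68 at 0.43 and Trim15 at −0.63.

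Trim33 and Trim59 were lower by smaller margins. Trim33 is a PHD-bromodomain protein that limits Smad4 in TGF-beta signalling. It measured 103, 110.15 and 117 CPM in knockout libraries and 139.9, 130.4 and 124 CPM in wild-type libraries (log2 fold change −0.25, SE 0.09, edgeR adjusted p = 0.413). Its groups did not overlap, with knockout replicate 3 nearest to wild-type replicate 3. Trim59, which is anchored in membranes, measured 66.4, 67.7 and 66.7 CPM in knockout libraries and 88.5, 69.3 and 99.7 CPM in wild-type libraries. The knockout libraries lay close together while the wild-type libraries were spread, and the log2 fold change was −0.36 (SE 0.14, edgeR adjusted p = 0.436). It was −0.24 without wild-type replicate 3. The other members whose groups did not overlap were Trim8, with a log2 fold change of −0.18, and Trim36, with 0.21 (edgeR adjusted p = 0.547 and 0.541).

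**Figure D3:**
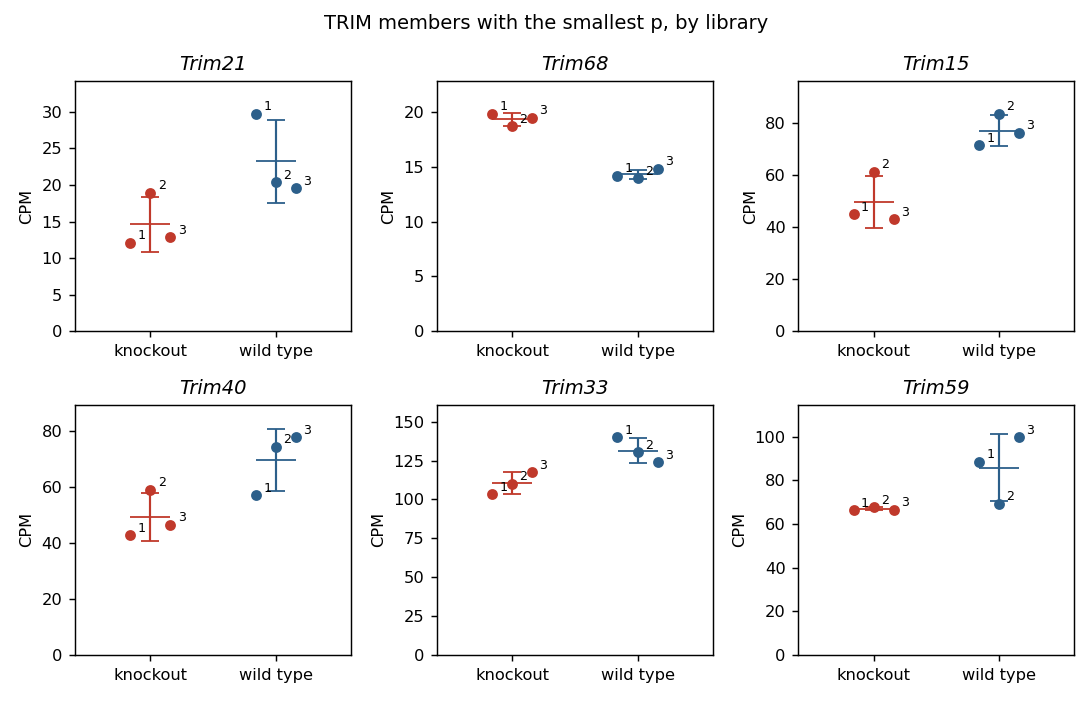
Level in CPM of the 6 members with an unadjusted p under 0.05, by group, with each library as a numbered point and the mean and SD (n = 3) as bars. Trim68 alone is higher in the knockout, 18.7 to 19.8 against 13.9 to 14.8 CPM, and only Trim40 has groups that overlap.

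None of the other PHD-bromodomain members passed. Trim28, the corepressor that KRAB zinc finger proteins recruit to silence retroelements, measured 164, 141 and 128 CPM in knockout libraries and 178, 147 and 168 CPM in wild-type libraries (log2 fold change −0.18, edgeR adjusted p = 0.598). Trim24, a coregulator of nuclear receptors, had 0.01. Trim66 was low in every library, at 0.942, 0.824 and 0.724 CPM in knockout libraries and 0.872, 0.372 and 0.222 CPM in wild-type libraries, and its groups overlapped (log2 fold change 0.75, SE 0.57, edgeR adjusted p = 0.649). Partners of Trim28, such as the methyltransferase Setdb1 and the heterochromatin proteins Cbx1, Cbx3 and Cbx5, had log2 fold changes below 0 for 11 of 11 genes. Their median was −0.17, 0 of 11 passed, and 4 had groups that did not overlap, where 8.47% of all genes were lower without overlap. The smallest p in that list belonged to Mphosph8, a reader of silenced chromatin (−0.23, edgeR adjusted p = 0.477), Cbx3 (−0.31, adjusted p = 0.503) and the deacetylase Hdac2 (−0.27, adjusted p = 0.513).

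By CPM the members ranked highest were Trim2, Trim25 and Trim44, and none of them differed between the groups beyond the spread. Trim2, an NHL-repeat ligase best known in neurons, measured 242 ± 20.2 CPM against 283 ± 40.8 CPM (knockout and wild type, SD, n = 3 each; log2 fold change −0.23, edgeR adjusted p = 0.538). Trim25, which activates the RNA sensor RIG-I, measured 187 ± 20.0 against 194 ± 30.4 CPM, and Trim44, which lacks a RING, measured 181 ± 10.4 against 177 ± 11.3 CPM. Levels of different genes can be compared only per length. Per kilobase of annotated exon, the highest mean levels over the 6 libraries were 37.1 CPM for Trim28, 33.2 for Trim31, 33.0 for Trim25, 32.4 for Trim15 and 31.7 for Trim44, and Trim2, with 19751 exonic bases, fell to 13.3. Members with no RING were above 0 in 4 of 4 cases, with a median log2 fold change of 0.09 and 0 passing. That median was −0.025 with wild-type replicate 2 left out and 0.21 with knockout replicate 1 left out. Trim16, an oxidative stress gene among them, had the largest value, 0.19 (SE 0.11).

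Most interferon-inducible members were highest in 1 library of each genotype, the same libraries in which interferon-stimulated genes were highest. The mean log2 CPM of interferon-stimulated genes was 4.15, 6.17 and 4.87 for knockout replicates 1 to 3 and 6.32, 4.89 and 5.08 for the wild-type replicates. Knockout replicate 2 and wild-type replicate 1 were the highest libraries, and they were the highest 2 for all 32 tested genes of that list. They were also the highest 2 for 11 of 14 tested interferon-inducible TRIM members, against 5 of 37 other members and 5.98% of all genes tested. The exceptions were Trim21, Trim34b and Trim56, and the 5 other members were Trim10, Trim23, Trim24, Trim43c and Trim45. The median log2 fold change of the 14 members was −0.03, with 7 above and 7 below 0. It was −0.42 with knockout replicate 2 left out and 0.26 with wild-type replicate 1 left out. With the interferon level as a covariate it was 0.15.

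Trim30a, which dampens inflammatory signalling in mouse cells, measured 23.7, 110.3 and 59.4 CPM in knockout libraries and 103, 45.8 and 44.5 CPM in wild-type libraries. The lowest and the highest library were both knockout, and its log2 fold change was 0.0025 (SE 0.55). Trim30c had 21, 135 and 29 reads in knockout libraries and 114, 59 and 56 in wild-type libraries, and its CPM was 5.83-fold higher in knockout replicate 2 than in the mean of the other knockout replicates. Trim34a measured 19.9, 51.1 and 35.8 CPM against 59.6, 33.3 and 31.8 CPM. For Trim5, a relative of the primate retrovirus restriction factor, the values were 10.1, 25.7 and 10.5 against 24.8, 11.1 and 14.5 CPM. Trim12c measured 37.2, 93.2 and 54.9 against 100.8, 57.6 and 62.2 CPM. In all of these the groups overlapped, and none passed (edgeR adjusted p from 0.812 to 0.999). The spread was smaller for Trim25 and Trim26, whose highest library was 1.38 and 1.39 times the lowest, against 4.65 times for Trim30a.

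**Figure D4:**
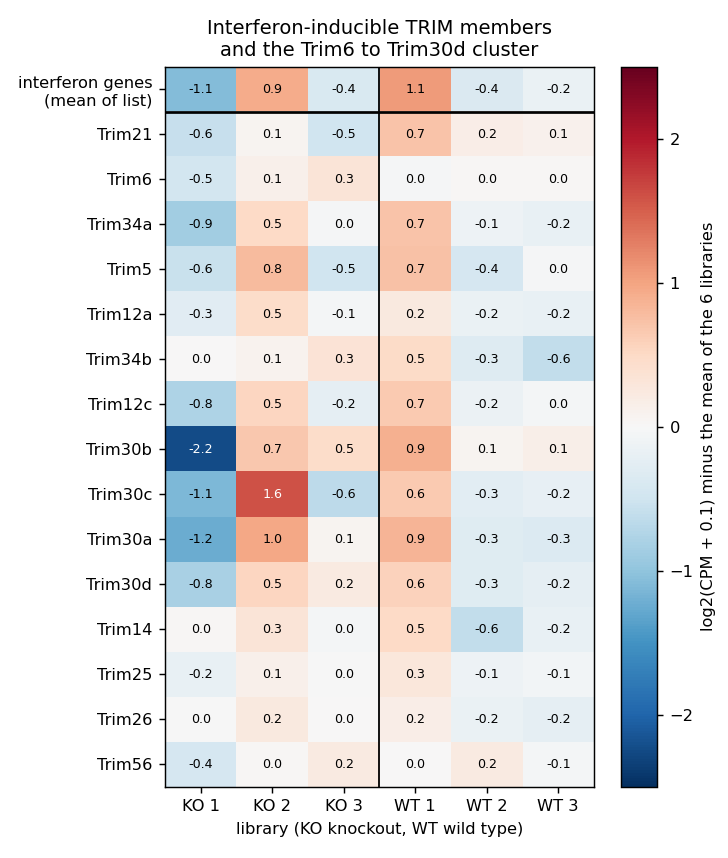
Each cell gives log2(CPM + 0.1) of a member in a library minus that member's mean over the 6 libraries; the top row is the same for the mean log2 CPM of 32 interferon-stimulated genes, with red above and blue below the mean. Knockout replicate 2 and wild-type replicate 1 are red in the top row and in most members below it, while Trim21 is higher in the wild type.

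Most of these genes sit together, 1.65 to 1.9 Mb from Trim21, in the order Trim6, Trim34a, Trim5, Trim12a, Trim34b, Trim12c, Trim30b, Trim30c, Trim30a and Trim30d. All 10 were tested, with log2 fold changes from −0.34 (Trim30b) to 0.33 (Trim30c), and the groups overlapped for each. Trim6 (0.02), Trim12a (0.10), Trim34b (0.25) and Trim30d (0.02) lay within that range. With single libraries left out, Trim34b ranged from 0.023 (without wild-type replicate 3) to 0.67 (without wild-type replicate 1). Trim3, an NHL-repeat member 3.04 Mb from Trim21, had 0.10. Counts of close copies are uncertain where reads could match several genes. Of the 50-base words in annotated transcripts, Trim34a shared 39.8% with Trim34b, and Trim12c shared 24.2% with Trim5. Trim30a shared 5.98% with Trim30d, while Trim21, Trim68, Trim15, Trim40, Trim33 and Trim59 shared none with any other member.

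Members were also compared with Trim21 over the 6 libraries, by Pearson's r of log2 CPM in 50 relations with exact two-sided permutation p. Both groups enter each r, and Trim21 itself was lower in the knockout. A large r of a member that differs between the groups thus partly repeats that difference and is not separate support for it. After Benjamini-Hochberg adjustment 0 relations passed, and 6 had an unadjusted p under 0.05. For rho the smallest p that 6 libraries allow is 0.00278, too large for a single relation to pass after adjustment over 50. For r, p is a share of 720 orders of the libraries, and even 1 order of 720 is too large for that. Trim13, an endoplasmic reticulum ligase, was most like Trim21, with r = 0.97 (exact permutation p = 0.00417, adjusted p = 0.208) and rho = 0.94 (exact permutation p = 0.0167, adjusted p = 0.278). Its own difference was small, 14.9 ± 0.840 CPM against 16.6 ± 1.55 CPM (knockout and wild type, SD, n = 3 each). Next came Trim45 with r = 0.90 and rho = 0.71 (exact permutation p = 0.0181 and 0.136) and Trim10 with r = 0.88 and rho = 0.77 (exact permutation p = 0.0194 and 0.103). Trim33 followed with r = 0.83 and rho = 0.94 (exact permutation p = 0.0375 and 0.0167). At the other end were Trim68 with r = −0.83 and rho = −0.94 (exact permutation p = 0.0125 and 0.0167) and Trim46, an axon protein, with r = −0.64 and rho = −0.26 (exact permutation p = 0.19 and 0.658). Adjusted p for Pearson's r was 0.243 for Trim45, Trim10 and Trim68, 0.3125 for Trim33 and 0.515 for Trim46, and for rho it was 0.278 or more in each. Without knockout replicate 1 and wild-type replicate 1, the libraries farthest from the median of Trim21, r was 0.98 for Trim13, 0.77 for Trim45, 0.90 for Trim10 and −0.74 for Trim68. For Trim33 it was 0.34 and for Trim46 −0.35. Those libraries were chosen by their Trim21 values, which narrows its range, so a smaller r does not show what a relation rests on.

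The muscle-type members appeared in a single library. Trim54, Trim55 and Trim63 encode the MuRF ligases of striated muscle, Trim63 being the one known for muscle wasting. Wild-type replicate 3 held 158 reads of Trim54, 67 of Trim55 and 106 of Trim63, while the other 5 libraries held 0 to 4 reads of each. None of the 3 was tested. Striated muscle markers, such as Acta1, Ckm and Myh4, summed to 3319 CPM in that library and to 5.22 to 18.2 CPM in the other 5. Trim72, a membrane repair protein of striated muscle, was likewise highest there, at 10.3 CPM against 1.88 to 5.51 CPM in the other libraries. Of the defining markers, Myh4 and Ckm had reads in every library, Mb and Myh1 had 0 reads in knockout replicate 3, and Myh2 had 0 in wild-type replicate 1.

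**Figure D5:**
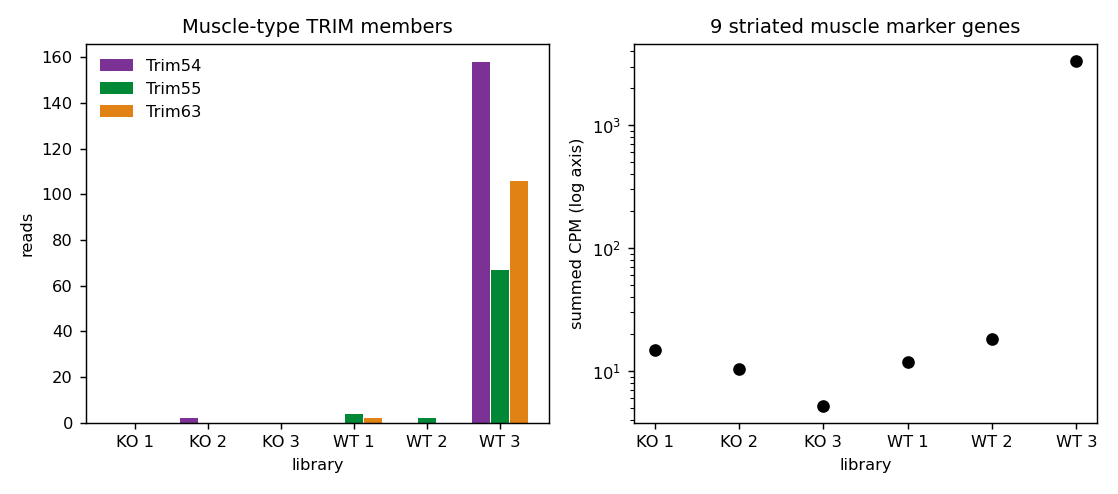
Left, reads of Trim54, Trim55 and Trim63 in each library; right, summed CPM of 9 striated muscle marker genes on a log axis (KO knockout, WT wild type). Wild-type replicate 3 holds 158, 67 and 106 reads and 3319 CPM, and each of the other 5 libraries holds at most 4 reads of a gene and 18.2 CPM.

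Of the 17 members that were not tested, 5 had 0 reads in all libraries (Trim42, Trim52, Trim60, Trim61 and Trim75), and a count of 0 allows up to 3 reads in a library. Besides the 3 muscle members, 9 had 2 to 28 reads in total. Among these, chosen after its values were seen, Trim38, an inhibitor of Toll-like receptor signalling, had 5, 3 and 2 reads in the knockout and 0 in each of the deeper wild-type libraries. The embryonic gene Trim71 had 2 reads in all, and the erythroid gene Trim58 had 12, all in wild-type libraries. Trim9, a neuronal gene, had at most 12 reads in a library. Trim67, of the same structural type, passed the filter with 58 reads in total and had the highest log2 fold change of the family, 0.90 (SE 0.99, edgeR adjusted p = 0.757).

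Genes around Trim21 in its pathways gave no call either. Of 16 partners, comprising interferon regulatory factors, ubiquitin-conjugating enzymes and known substrates, 15 had a log2 fold change below 0, with a median of −0.11, and 0 passed. The groups did not overlap for 1 higher partner (Irf8) and 2 lower (Vcp and Ube2n). Of all genes tested, 9.43% were higher and 8.47% lower without overlap. Vcp, the unfoldase that helps Trim21 to destroy antibody-coated targets, measured 448 ± 26.7 CPM against 525 ± 13.4 CPM without overlap (knockout and wild type, SD, n = 3 each; log2 fold change −0.23, edgeR adjusted p = 0.423). The kinase Ikbkb had −0.24 (adjusted p = 0.532) and the conjugating enzyme Ube2n had −0.14 (adjusted p = 0.541). Irf8, a myeloid and B cell factor, was the only partner above 0, at 0.33 (edgeR adjusted p = 0.590), while Irf3, Irf5 and Irf7 had −0.11, −0.11 and −0.06. Irf8 measured 52.1, 45.0 and 44.5 CPM in knockout libraries and 25.7, 43.8 and 43.4 CPM in wild-type libraries. Its groups did not overlap, but wild-type replicates 2 and 3 lay close to knockout replicates 2 and 3. Wild-type replicate 1 was far below the rest. Macrophage markers, 7 of 7 above 0, summed to 293 to 420 CPM in knockout and 264 to 275 CPM in wild-type libraries. B and plasma cell markers, 5 of 6 above 0 with a median log2 fold change of 0.93, summed to 1153 to 3305 CPM in knockout and 497 to 900 CPM in wild-type libraries, without overlap. Wild-type replicate 1, the lowest library in Irf8, was also the lowest in both sums (264 and 497 CPM). Knockout replicate 1, the highest library in Irf8, was the lowest knockout library in both sums (293 and 1153 CPM). The part of either marker list in the Irf8 value was not tested. In the RIG-I pathway that Trim25 feeds, 9 of 12 genes were below 0, the median was −0.08 and 0 passed. With single libraries left out that median lay between −0.15 (knockout replicate 2 omitted) and −0.0058 (wild-type replicate 1 omitted). Ikbke (0.21), Traf6 (−0.13) and Rnf135 (−0.23) had the smallest p there, with edgeR adjusted p of 0.543, 0.585 and 0.641. The interferon-stimulated list had 27 of 32 genes below 0 and a median of −0.21, which was −0.94 with knockout replicate 2 left out and 0.34 with wild-type replicate 1 left out. Its smallest p were those of Rsad2, Cmpk2 and Mx2, with log2 fold changes of −0.67, −0.42 and −0.87 and edgeR adjusted p of 0.731, 0.734 and 0.735.

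Genes of the TRIM family that carry other names were few. Of 6 listed, 4 were tested and all 4 had log2 fold changes below 0. Mid1, a microtubule-bound ligase, measured 18.0, 18.8 and 18.9 CPM in knockout libraries and 90.5, 25.1 and 20.1 CPM in wild-type libraries (log2 fold change −1.29, SE 0.54, edgeR adjusted p = 0.463). The groups did not overlap, but 1 wild-type library, replicate 1, was far above the rest. Mid2 (−0.14), Mefv (−0.12) and Pml, the organizer of nuclear bodies (−0.02), had edgeR adjusted p of 0.776, 0.891 and 0.976.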

How the data were processed

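The authors deposited, for each of the 6 samples, read counts as whole numbers, with 1 row per gene symbol. Per the submitters' processing notes, mm10, TopHat2, edgeR and limma were used. The read counter, strand setting and annotation: not given in the sources used here. Without strand, reads from overlapping genes on opposite strands, which 14 members have, cannot be told apart. All 26214 rows carry a name.

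Groups came from the sample titles. The main test was edgeR 4.0.16's quasi-likelihood fit, run under R 4.3.3 (TMM scaling, filterByExpr, group as the only term, two-sided, Benjamini-Hochberg over 16281 genes, threshold 0.05). CPM uses the TMM-scaled library size, and log2 CPM a prior count of 2. Positions and exon lengths come from GENCODE M21 (GRCm38), which holds all 68 members. DESeq2 1.42.0 and limma-voom (limma 3.58.1), other scalings and filters, thinned counts, a replicate block, an interferon covariate and omission of each library were alternatives. On counts simulated for this comparison (16063 genes tested), edgeR recovered 50%, 86%, 92% and 100% of genes changed by a log2 fold change of 1, 1.5, 2 and 3, and 16 of its 180 calls were false, against 65 of 243 for DESeq2. The smallest planted change, 1, was larger in size than that of any tested member, and genes with the lowest CPM got none. Recovery at the sizes of the members was thus not measured. No set test was run.

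The named members are Trim21, those with an unadjusted p under 0.05, the 3 with the highest CPM, those within 5 Mb of Trim21, the 4 most and 2 least like Trim21, and up to 3 genes per further list. Other genes were named after their values were seen. The members and lists were chosen with earlier results of these data known.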

Additional observations from a re-analysis of the deposited data

How the results depend on the processing

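The number of genes called was 0 with edgeR, 337 with DESeq2 and 0 to 1 when single libraries were left out, and 1750 genes had an unadjusted p under 0.05. For TRIM members it was 0, 1 (Trim15) and 0 to 0. Trim21 stayed below 0 in every setting, from −0.90 to −0.45 when single libraries were left out. With every gene that had a read tested, 63 members entered and 2 higher and 8 lower had an unadjusted p under 0.05. Of all 20906 genes in that setting, 1183 higher and 786 lower did so. No pairing of the samples by replicate number was seen. The deviations of same-numbered libraries correlated at −0.147, −0.175 and −0.0734, and 0 of 3 knockout libraries correlated best with their own number. Deviations from a mean of 3 libraries depend on each other and carry other differences between libraries. A weak pairing could therefore be missed. With the replicate block edgeR called 0 genes, 1293 had an unadjusted p under 0.05, and Trim21 had −0.67 (adjusted p = 0.631), with 1 member higher and 2 lower at an unadjusted p under 0.05. Of the 24 named members refitted in every setting, the 11 whose sign turned had log2 fold changes smaller than their standard error, and the cause was not tested. With limma-voom Trim6, Trim30c, Trim30a and Trim30d had −0.022, −0.19, −0.17 and −0.043, and with the replicate block −0.015, −0.13, −0.079 and −0.0031. With thinned counts Trim30a had −0.041, and with the interferon covariate Trim25 had 0.024 and Trim5 0.0865. Leaving out single libraries gave ranges of −0.13 to 0.082 for Trim25, −0.017 to 0.081 for Trim44, −0.15 to 0.22 for Trim6, −0.58 to 0.13 for Trim34a, −0.70 to 0.27 for Trim5 and −0.14 to 0.26 for Trim12a. The ranges were −0.67 to 0.044 for Trim12c, −0.77 to 0.17 for Trim30b, −1.05 to 0.76 for Trim30c, −0.63 to 0.51 for Trim30a and −0.27 to 0.36 for Trim30d. Depth limits members with few reads.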
